A study of Mus musculus with 10 samples.

Results

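Primordial germ cell-like cells (PGCLC) are the in vitro counterpart of primordial germ cells, the embryonic precursors of sperm and eggs. The comparison described here set the starting population of the induction, d2 EpiLC (289 cells), against the d2 PGCLC that arose from such cells within embryoid bodies (91 cells of the 537 cells of the d2 EB library, out of 2782 cells of the line E14Tg2a in all). The d2 EpiLC cells were all cells with the barcode suffix of that library, and the d2 PGCLC were the d2 EB cells whose barcodes the authors list as PGCLC. Both groups are wild-type mouse E14Tg2a ESC derivatives. The ESC were maintained in serum+LIF, moved to 2i medium with LIF ahead of the differentiation, and then grown for 2 days on fibronectin with Activin A (20 ng/ml), bFGF (12 ng/ml) and KSR, which gives d2 EpiLC. These were then aggregated for 2 days in GK15 medium with BMP4 (0.5 µg/ml), SCF (0.1 µg/ml), LIF (1000 U/ml) and EGF (50 ng/ml), without BMP8a, which gives d2 EB. The other 446 cells of d2 EB, called the remaining d2 EB below, were used as a reference from the same library.

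In the mouse embryo, the post-implantation epiblast is in a formative state, in which the naive pluripotency network has been shut down and germline competence is transient. BMP4 from the extraembryonic ectoderm, acting together with WNT signaling and the mesodermal factor T, induces *Prdm1*, *Prdm14* and *Tfap2c* in a few epiblast cells. These 3 factors repress the somatic program, restore the expression of naive pluripotency genes and open the epigenetic reprogramming in which DNA methylation is erased. The EB medium supplies BMP4, and d2 EB also hold many cells that express mesodermal genes.

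Expression was measured with droplet-based scRNA-seq, in which unique molecular identifiers (UMIs) count the captured transcripts. The cells had a median of 35956 UMIs and 5231 genes in d2 EpiLC, 29664 UMIs and 4762 genes in d2 PGCLC, and 24046 UMIs in the remaining d2 EB. The counts of all cells in a group were added up and expressed per 1000000 UMIs (CPM), so that a level rests on 11155833 UMIs in d2 EpiLC and 2933129 UMIs in d2 PGCLC. The ranges given in parentheses after levels and folds are 95% intervals that cover counting error only. Each condition had 1 library, so stage and library cannot be told apart, no test was possible, and a gene was called higher or lower by size alone, when the ratio of its levels, each with 1 CPM added, was at least 2-fold.

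Differences of this size between d2 EpiLC and d2 PGCLC were found in both directions and in similar number. Of 8758 genes whose mean of both groups was at least 5 CPM, 736 (8.40%) were 2-fold or more higher in d2 PGCLC and 742 (8.47%) were 2-fold or more lower, and 242 and 157 genes passed 4-fold. A gene near 0 CPM in 1 group passes this minimum only through the other, which fixes the direction of its call. The median level of the higher genes was 5.60 CPM in d2 EpiLC, 21.8 CPM in d2 PGCLC and 20.2 CPM in the remaining d2 EB. For the lower genes it was 28.1, 8.18 and 11.3 CPM. Higher genes made up 49.8% of these calls, and 63.1% when ribosomal protein and mitochondrially encoded genes were left out of the total, which shifted the median log2 ratio of all genes by 0.17. The median log2 ratio was -0.04, and the middle 90% of genes lay between -1.33 and 1.38. Against the remaining d2 EB of the same library, 444 of 8856 genes (5.01%) were higher in d2 PGCLC and 715 (8.07%) were lower by the same rule.

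**Figure D1:**
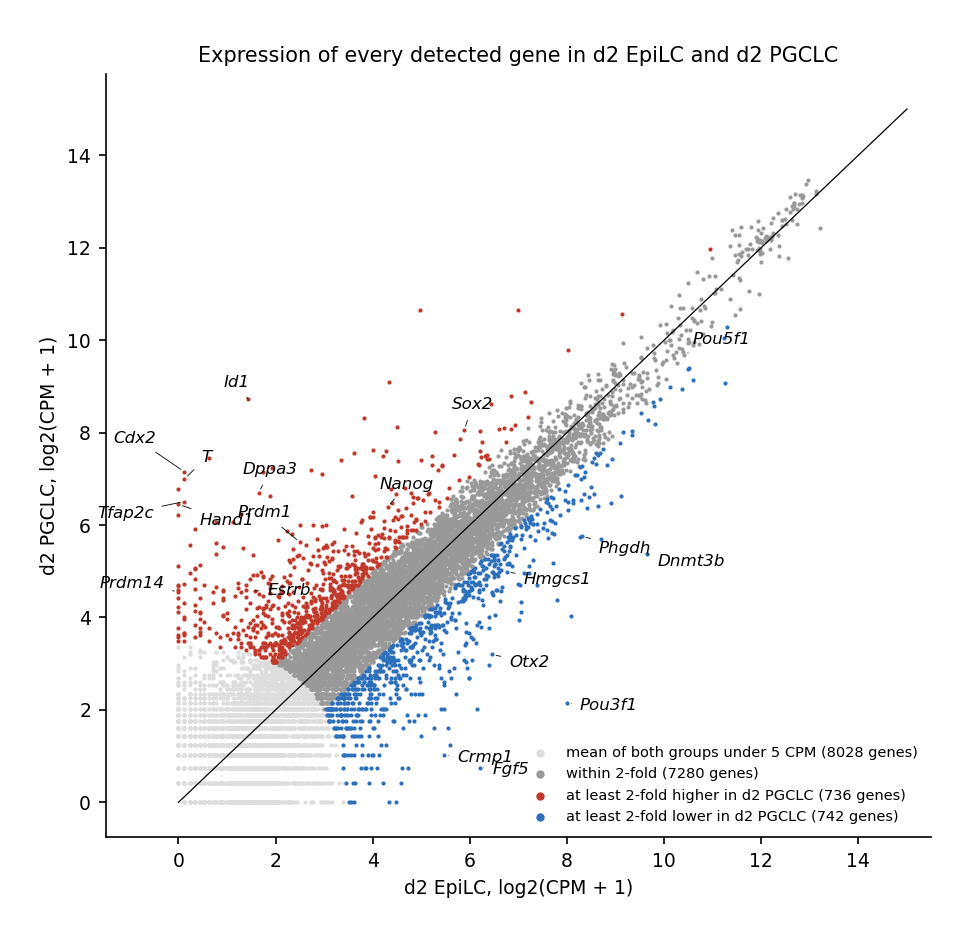
Level of each detected gene in d2 EpiLC (x axis) and d2 PGCLC (y axis), both as log2(CPM + 1), with 1 point per gene. Red points are the 736 genes at least 2-fold higher in d2 PGCLC and blue points the 742 genes at least 2-fold lower. *Cdx2*, *T*, *Hand1* and *Tfap2c* lie at the left edge, near 0 in d2 EpiLC, and *Fgf5* and *Pou3f1* lie far below the diagonal.

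Most of the 15 genes with the highest ratios were BMP targets, WNT pathway genes or factors of mesoderm and posterior tissue. In order they were *Id1*, *Cdx2*, *T*, *Rspo3*, *Sprr2a3*, *Hand1*, *Tfap2c*, *Msx2*, *Ifitm1*, *Tgfb2*, *Msx1*, *Wnt5a*, *Pdgfa*, *Sct* and *Hoxd9*. *Id1*, an inhibitor of basic helix-loop-helix factors and a direct BMP target, was at 1.70 CPM (1.03 to 2.66) in d2 EpiLC and 422 CPM (399 to 447) in d2 PGCLC, 248-fold (158 to 413) higher. *T*, the T-box factor of the primitive streak, had 1 UMI in d2 EpiLC as a whole and 127 CPM (114 to 140.4) in d2 PGCLC, a ratio of 1415 (252 to 56032). *Pdgfa*, a growth factor gene, was at 2.78 and 150.4 CPM and *Tgfb2*, a ligand of the TGFβ family, at 0.269 and 59.3 CPM. Transcripts of *Hand1*, a factor of extraembryonic mesoderm, were not found in d2 EpiLC, where 0 UMIs allow up to 0.269 CPM, and d2 PGCLC had 86.3 CPM (75.95 to 97.6), at least 321-fold higher. *Sprr2a3*, a gene of a family of near-identical copies, was likewise at 0 in d2 EpiLC and at 109 CPM (97.5 to 122), and is given as uncertain, since how reads of such copies were assigned was not tested. Only *Tfap2c* and *Ifitm1* of the 15 belonged to the germ cell lists.

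The 15 genes with the lowest ratios were led by markers of the formative epiblast. In order they were *Pou3f1*, *Fgf5*, *Fam57b*, *Crmp1*, *Dtx1*, *Dnmt3b*, *Mt3*, *Cbr3*, *Pim2*, *Stc2*, *Nefl*, *Cthrc1*, *Jph4*, *Prss50* and *Calca*. *Pou3f1*, a POU factor of the post-implantation epiblast, was at 257 CPM (247 to 266) in d2 EpiLC and 3.41 CPM (1.63 to 6.27) in d2 PGCLC, 75.3-fold (40.9 to 157) lower. *Dtx1*, a regulator of Notch signaling, was at 47.2 and 1.36 CPM, and *Calca*, which encodes calcitonin, at 43.5 and 3.07 CPM. *Fam57b* had 236 UMIs in d2 EpiLC and 0 in d2 PGCLC, at least 20.7-fold lower. All 15 were also lower in the remaining d2 EB than in d2 EpiLC, with levels of 0 CPM for *Fgf5* and at most 47.6 CPM for *Dnmt3b*. Both cell groups of the EB library thus had low levels of these genes.

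**Figure D2:**
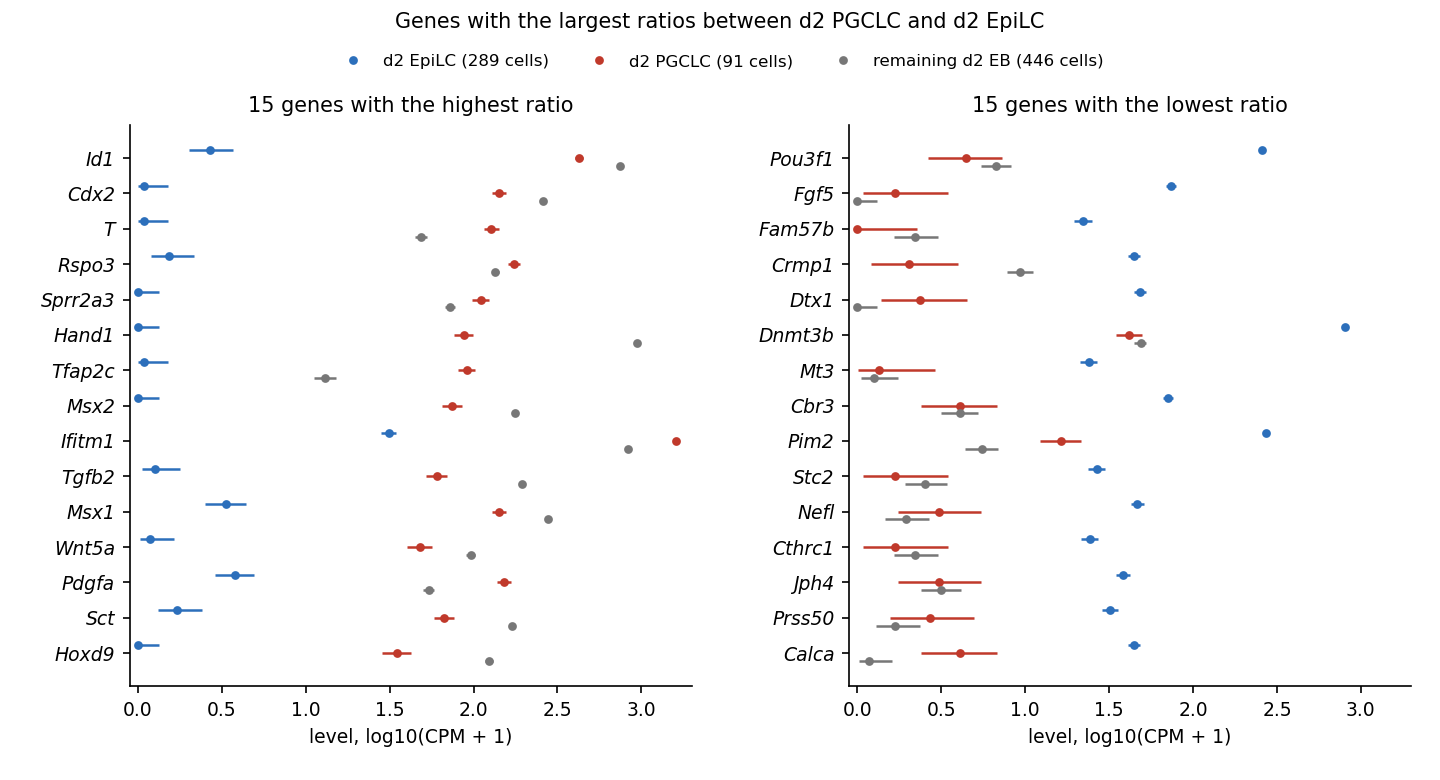
Levels of the 15 genes with the highest (left) and the 15 with the lowest (right) ratio between d2 PGCLC and d2 EpiLC, as log10(CPM + 1) on the x axis. Points are the level of a group and lines its 95% counting interval. The remaining d2 EB (gray) lie below d2 EpiLC (blue) for all genes on the right, and above d2 PGCLC (red) for 9 of the 15 genes on the left, *Hand1* by the widest margin among them.

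The label of d2 EpiLC was met by its markers *Fgf5*, *Otx2*, *Pou3f1*, *Dnmt3b* and *Sox3*, all present at the levels given below. The cells listed as PGCLC were taken by the authors from a cluster of d2 EB enriched for PGC genes, so the levels of germ cell genes describe this selection. All 3 PGC specification factors were far higher than in d2 EpiLC, where 8.40% of all genes were called higher. Each was under 5 CPM in d2 EpiLC and passed the minimum mean through its d2 PGCLC level, so the filter fixed its direction. *Prdm1*, which encodes the repressor BLIMP1 (chr10:44437177-44528501, GRCm38), was at 4.66 CPM (3.48 to 6.11) in d2 EpiLC and 48.4 CPM (40.8 to 57.1) in d2 PGCLC, 10.4-fold (7.51 to 14.6) higher. *Tfap2c*, which encodes the factor AP2γ, had 1 UMI in d2 EpiLC and 90.01 CPM (79.5 to 102) in d2 PGCLC, a ratio of 1004 (179 to 39808). *Prdm14*, which keeps naive genes active and methyltransferases low in germ cells, had 0 UMIs in d2 EpiLC and 22.5 CPM (17.4 to 28.6) in d2 PGCLC, at least 83.7-fold higher. Only *Prdm1* was thus detected in d2 EpiLC in more than 1 cell, namely in 43 of them. The median log2 ratio of the list was 4.55, or 6.38 with *Prdm14* set at its lower bound, which is taken without the 1 CPM added to the other ratios. The second value is the ratio of *Tfap2c*, then the middle gene.

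Of the 10 early germ cell effectors, the 7 expressed highly enough for comparison were all higher in d2 PGCLC, where 8.40% of all genes were. *Dppa3*, *Nanos3* and *Kit* were low in d2 EpiLC and passed the minimum mean through their d2 PGCLC level, so the filter fixed their direction. *Dppa3*, a maternal factor that protects DNA from active demethylation and marks PGCs, was at 2.15 CPM in d2 EpiLC and 103 CPM (91.4 to 115) in d2 PGCLC, 47.7-fold (31.5 to 75.6) higher. *Nanos3*, an RNA-binding protein needed for PGC survival, was at 0.627 and 22.5 CPM, and *Dnd1*, another RNA-binding survival factor, at 9.23 and 169 CPM. The remaining d2 EB, from which the d2 PGCLC were picked out by PGC genes, had 1.62 CPM of *Dppa3*, 1.11 CPM of *Nanos3* and 23.3 CPM of *Dnd1*. The interferon-induced membrane protein genes *Ifitm1* and *Ifitm3*, classical PGC surface markers, were at 1612 and 1618 CPM in d2 PGCLC against 30.3 and 126 CPM in d2 EpiLC. They were at 832 and 829 CPM in the remaining d2 EB. *Kit*, the receptor of SCF, was at 2.33 and 28.6 CPM and *Alpl*, the tissue-nonspecific alkaline phosphatase used to stain PGCs, at 15.4 and 133 CPM. *Itgb3*, *Cxcr4* and *Fut4* were too low to compare, with 2.73, 2.39 and 1.36 CPM in d2 PGCLC.

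Detection in single cells showed that the germ cell genes were not found together in every d2 PGCLC. Of 6 genes, *Prdm1*, *Prdm14*, *Tfap2c*, *Dppa3*, *Nanos3* and *Dnd1*, 56 of the 91 d2 PGCLC had a UMI of at least 4, 12 had a UMI of all 6 and 3 had none. At least 4 were found in 0 of the 289 d2 EpiLC cells and in 2 of the 446 remaining d2 EB cells. *Tfap2c* was found in 80.2% (70.6 to 87.8) of d2 PGCLC and 0.346% of d2 EpiLC, and *Dppa3* in 54.9% (44.2 to 65.4) and 7.61%. After thinning each cell to 18049 UMIs, which left 276 d2 EpiLC and 88 d2 PGCLC cells, these shares were 65.9% and 0.362% for *Tfap2c* and 47.7% and 3.26% for *Dppa3*. The remaining d2 EB cells of the same library had *Tfap2c* in 13.5% and *Dppa3* in 3.81% of cells before thinning, and 18 of them had at least 3 of the 6 genes. Because the d2 PGCLC came from a cluster picked for PGC genes, higher shares than in the remaining cells follow from that selection.

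The naive pluripotency genes, which are active in the pre-implantation epiblast and in 2i ESC, were mostly higher in d2 PGCLC. Of 15 genes, 11 were at least 2-fold higher and 1 was lower, with a median log2 ratio of 2.85. Among all genes, 8.40% were higher and 8.47% lower. *Nr5a2*, *Tcl1*, *Tfcp2l1*, *Tbx3*, *Esrrb* and *Klf4* were low in d2 EpiLC and passed the minimum mean through their d2 PGCLC level. The filter thus fixed their direction, and the count and median rest in part on them. *Klf2*, a Krüppel-like factor of the naive network, was at 13.2 CPM in d2 EpiLC and 319.8 CPM (299.7 to 341) in d2 PGCLC, 24.3-fold (20.4 to 29.1) higher. *Esrrb*, a nuclear receptor at the center of this network, was at 1.97 and 22.8 CPM (17.7 to 29.01), and *Tfcp2l1*, a LIF-responsive factor, at 0.896 and 23.2 CPM (18 to 29.4). *Tbx3*, a T-box factor that is also used in mesoderm, had the highest ratio of the list (1.17 and 65.8 CPM), and the remaining d2 EB held more of it than d2 PGCLC (168 CPM). The other genes called higher were *Nr5a2*, *Klf4*, *Tcl1*, *Zfp42*, *Klf5*, *Pecam1* and *Nr0b1*. *Klf4* stood at a similar level in d2 PGCLC (37.5 CPM) and in the remaining d2 EB (40.5 CPM).

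Relative to 2i ESC, the naive genes of d2 PGCLC stood at very different levels. *Klf2* was at 65.9% of its level in 2i ESC, against 2.72% in d2 EpiLC, and *Zfp42* (also known as *Rex1*) at 35.7%, against 4.75%. *Esrrb* was at 37.7%, *Klf5* at 39.1%, *Tfcp2l1* at 18.6%, *Klf4* at 15.2% and *Tcl1* at 9.78% of the 2i ESC level. *Nr5a2*, an orphan nuclear receptor, was at 89.6%, the closest to its ESC level among these. *Fgf4*, the ligand that drives exit from the naive state, was the gene called lower (32.8 and 15 CPM). *Dppa5a*, *Zfp57* and *Gbx2* were within 2-fold, with *Dppa5a*, an RNA-binding protein gene of early embryos, at 2121 and 2666 CPM.

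Among core pluripotency genes, *Sox2* and *Nanog* were higher in d2 PGCLC and *Pou5f1* was within 2-fold. *Sox2* was at 58.1 CPM in d2 EpiLC and 265 CPM (246 to 284) in d2 PGCLC, 4.55-fold (4.10 to 5.06) higher, and at 218 CPM in 2i ESC. *Nanog*, which can itself induce PGC factors in EpiLC, was at 18.8 CPM and 82.5 CPM (72.4 to 93.6), 4.38-fold (3.63 to 5.30) higher. The third gene called higher was *Sall4* (73.7 and 177 CPM). *Pou5f1*, which encodes OCT4, was at 1357 and 824 CPM. *Tdgf1*, the Nodal co-receptor, and *Utf1* were called lower, at 212 and 55.2 CPM and at 646 and 245 CPM. Within the EB library, all these genes but *Sall4* were higher in d2 PGCLC than in the remaining d2 EB, which had 14 CPM of *Sox2*, 2.82 CPM of *Nanog* and 256 CPM of *Pou5f1*.

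The formative epiblast genes were mostly lower in d2 PGCLC. Of 19 genes, 13 were called lower and 1 was higher, with a median log2 ratio of -2.68, where 8.47% of all genes were lower and 8.40% higher. *Fgf5*, a growth factor of the post-implantation epiblast, had 810 UMIs in d2 EpiLC, or 72.6 CPM (67.7 to 77.8), and 2 UMIs in d2 PGCLC, or 0.682 CPM (0.0826 to 2.46), a ratio of 106 (29.4 to 881) between the groups. *Otx2*, a homeobox factor that restricts entry into the germline, was at 87.2 CPM (81.8 to 92.9) in d2 EpiLC and 8.18 CPM (5.24 to 12.2) in d2 PGCLC, 10.7-fold (7.12 to 16.7) lower, and at 0.0854 CPM in the remaining d2 EB. *Pim2*, *Fgf15*, *Zic2*, *Foxd3*, *Sall2*, *Zic5*, *Etv4*, *Sox4*, *Dnmt3a* and *Dnmt3b* were lower as well. *Cdh2*, the N-cadherin gene, was the one called higher (2.96 and 9.89 CPM), and *Sox3*, a SOXB1 factor used as an EpiLC marker, did not differ by this rule (17.03 and 23.2 CPM). *Sox11*, *Lef1*, *Tead2* and *Grhl2* were within 2-fold.

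Single cells showed this difference with little overlap. The summed level of the formative genes ranged from 741 to 4287 CPM over d2 EpiLC cells (median 2189.9) and from 36.8 to 1274 CPM over d2 PGCLC (median 310.1). Of the 91 d2 PGCLC, 84 lay below the lowest d2 EpiLC cell. *Pou3f1* was found in 98.6% (96.5 to 99.6) of d2 EpiLC cells and 8.79% (3.87 to 16.6) of d2 PGCLC, and no d2 PGCLC had UMIs of both *Pou3f1* and *Fgf5*. For the naive genes the groups overlapped, from 549 to 6278 CPM in d2 EpiLC and from 113 to 9499 CPM in d2 PGCLC, and 16 d2 PGCLC lay above the highest d2 EpiLC cell. *Dppa5a* alone makes up most of the summed naive level in both groups.

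**Figure D3:**
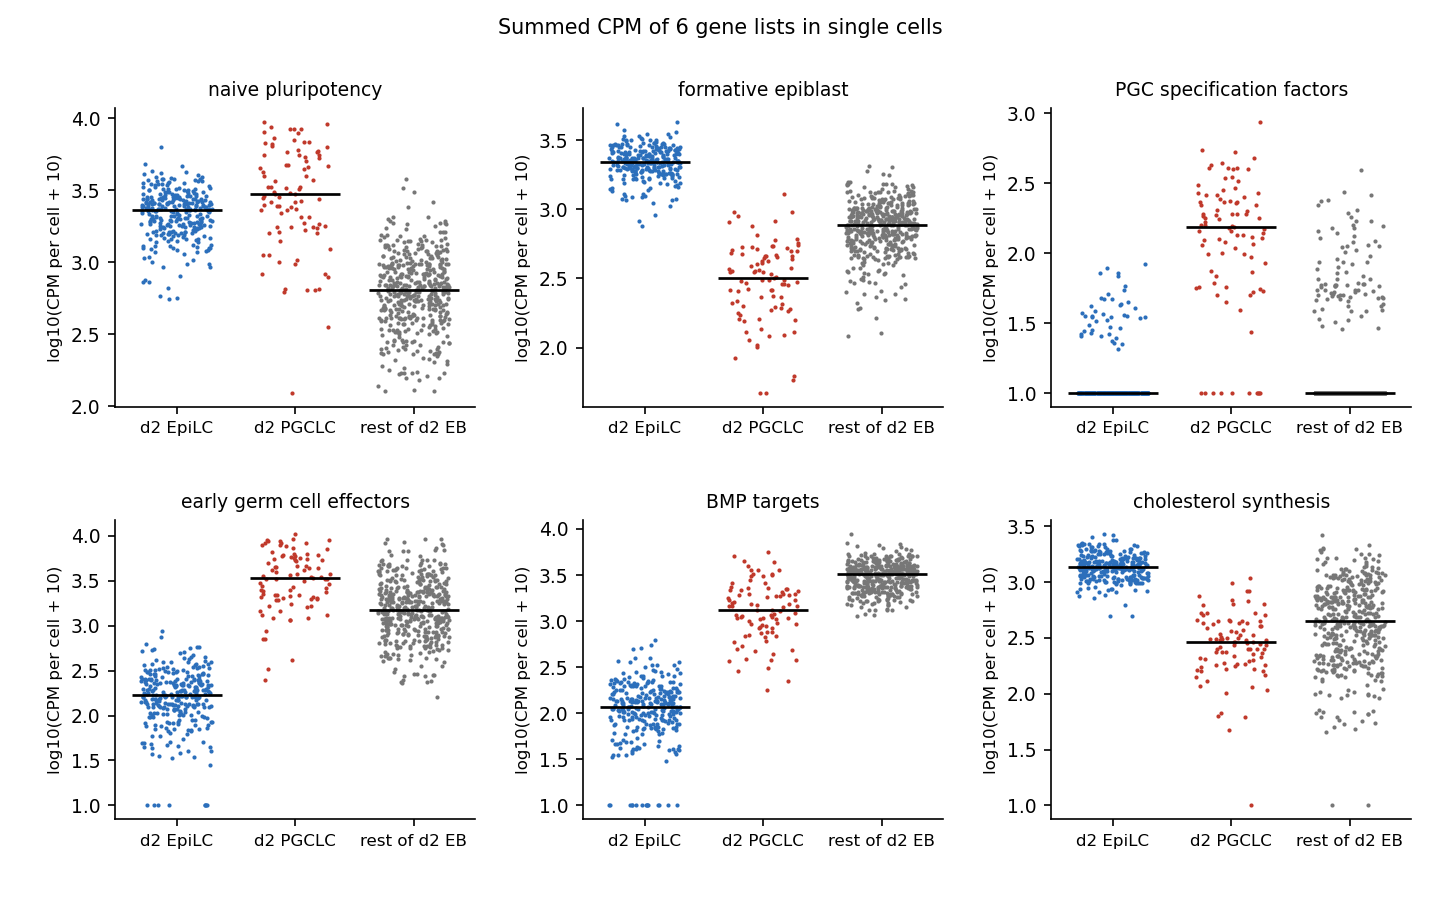
Summed level of 6 gene lists in each cell, as log10(CPM per cell + 10), with 1 point per cell of d2 EpiLC (blue), d2 PGCLC (red) and the remaining d2 EB (gray) and the median as a black line. Formative epiblast and cholesterol synthesis genes are lower in d2 PGCLC with little overlap, BMP targets and early germ cell effectors are higher, and naive genes overlap.

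**Figure D4:**
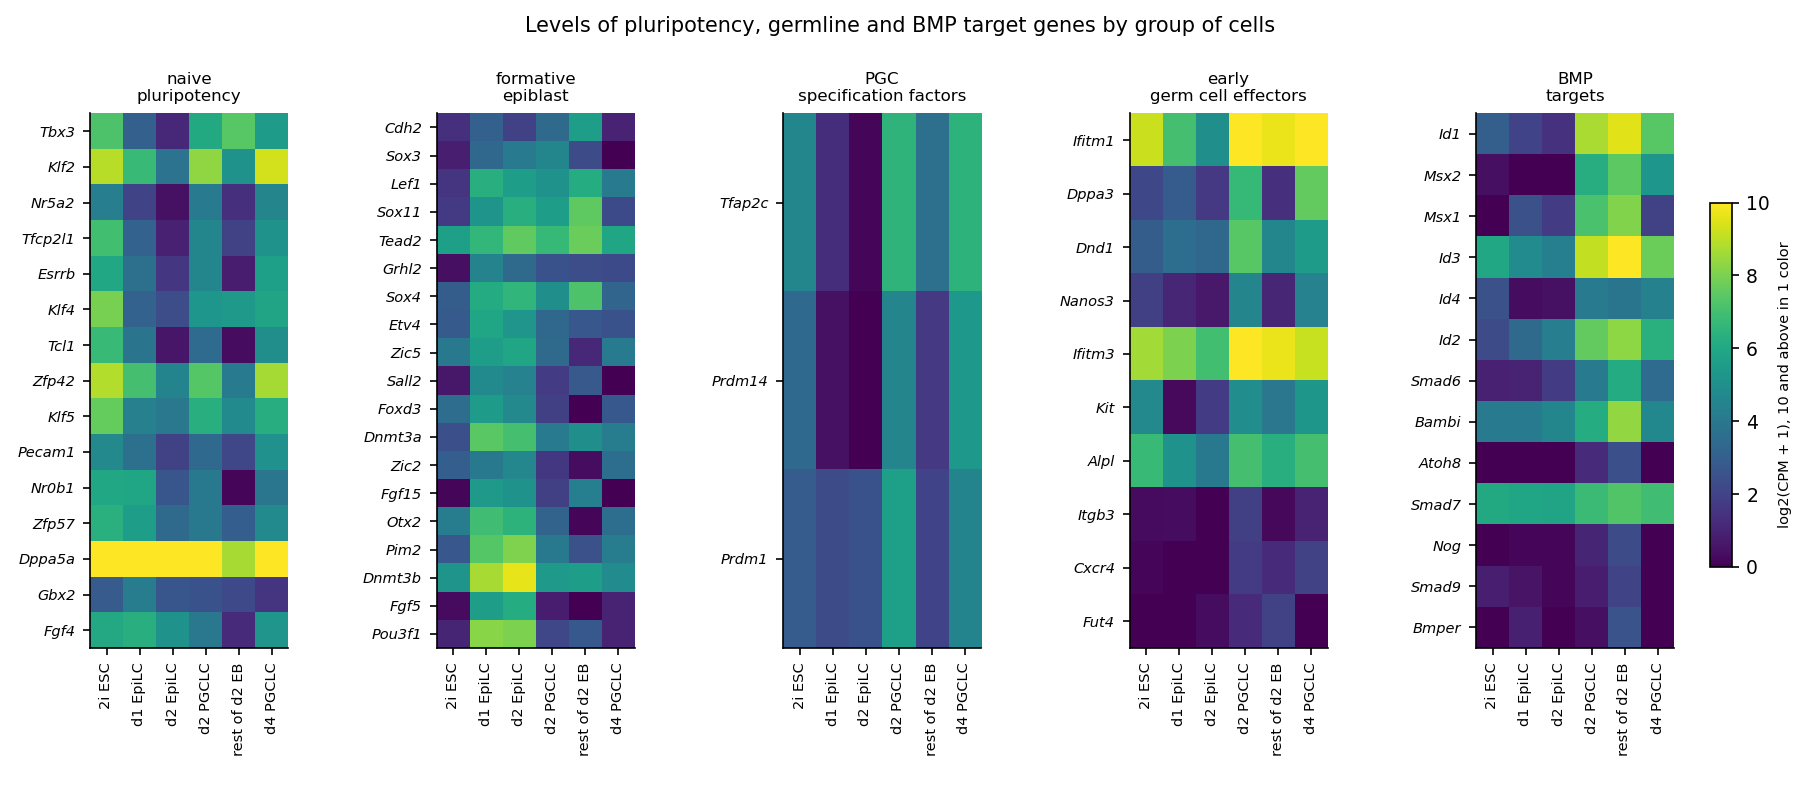
Levels of naive, formative, PGC, germ cell effector and BMP target genes in 6 groups of cells, as log2(CPM + 1) by color, with genes ordered by the ratio between d2 PGCLC and d2 EpiLC. Most naive genes are high in 2i ESC, low in d2 EpiLC and at intermediate or high levels in d2 and d4 PGCLC, and most formative genes are highest in d1 or d2 EpiLC.

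Signaling genes were next compared by pathway. BMP signals through SMAD1, SMAD5 and SMAD9 to *Id* and *Msx* genes and to its own inhibitors. Of 13 BMP targets, 9 could be compared and 8 of them were higher in d2 PGCLC, with a median log2 ratio of 3.65 (also with *Msx2* at its bound), against -0.04 over all genes. Of all genes, 8.40% were called higher. *Id1*, *Id4*, *Msx1*, *Msx2* and *Smad6* were low in d2 EpiLC and passed the minimum mean through their d2 PGCLC level. *Id3* was at 19.2 and 543 CPM, *Id2* at 18.5 and 193 CPM, *Msx1* at 2.33 and 141 CPM, and *Msx2* at 0 and 73.6 CPM. *Id4*, *Smad6* and *Bambi* were the others called higher, *Smad7* missed the rule (56.5 and 112 CPM), and *Atoh8*, *Nog*, *Smad9* and *Bmper* were too low. Of the genes called higher, all but *Id4* stood higher still in the remaining d2 EB, which had 749 CPM of *Id1* and 1046 CPM of *Id3*. The summed BMP target level had a median of 108 CPM in d2 EpiLC cells, 1325 CPM in d2 PGCLC and 3203 CPM in the remaining d2 EB cells. The ligand *Bmp4* was at 1.43 and 22.5 CPM, and the receptor *Bmpr1a* and the signal transducers *Smad1*, *Smad4* and *Smad5* were within 2-fold.

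WNT ligands were higher as well, and targets of the pathway were divided. The 4 ligands that could be compared were all called higher, namely *Wnt5a* (0.179 and 46.7 CPM), *Wnt3* (4.39 and 15 CPM), *Wnt4* and *Wnt5b*, and *Rspo3*, an R-spondin that potentiates WNT signaling, was at 0.538 and 173 CPM. *Wnt5a* and *Rspo3* were near 0 in d2 EpiLC and passed the minimum mean through d2 PGCLC alone. Of all genes, 8.40% were called higher. Of 7 WNT targets, the feedback inhibitors *Notum*, *Axin2* and *Znrf3* and the factor *Sp8* were higher and the cyclin gene *Ccnd1* was lower (149 and 53.5 CPM). In the Nodal pathway, which keeps the epiblast pluripotent, the ligand *Nodal* (58.1 and 20.5 CPM), its inhibitor *Lefty1* (479 and 88.3 CPM) and the co-receptor *Tdgf1* were lower, and the transducer *Smad3* was higher (2.51 and 9.21 CPM). FGF signaling genes were divided too. The ligands *Fgf5*, *Fgf15* and *Fgf4* and the factor *Etv4* were lower, while *Fgf8*, a ligand of the primitive streak (38.01 and 259 CPM), and the feedback inhibitors *Spry2*, *Spry4*, *Spred1* and *Dusp6* were higher. Of the receptors for the LIF, SCF and EGF in the medium, *Il6st*, the shared subunit gp130, was at 2.60 and 19.4 CPM and *Kit* was higher as given above, while *Stat3* was within 2-fold.

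Genes of the primitive streak and of posterior mesoderm were expressed in d2 PGCLC. *T*, *Mesp1*, *Evx1* and *Fgf8*, the 4 of 12 streak genes that could be compared, were all higher than in d2 EpiLC, where 8.40% of all genes were. *T*, *Mesp1* and *Evx1* were near 0 in d2 EpiLC and passed the minimum mean through d2 PGCLC alone, so the filter fixed their direction. *Mesp1*, a basic helix-loop-helix factor of nascent mesoderm, was at 0.269 and 32.4 CPM, and *Evx1*, a posterior streak factor, at 0 and 17.7 CPM. *Mixl1*, *Lhx1*, *Snai1*, *Tbx6*, *Eomes*, *Gsc*, *Mesp2* and *Msgn1* had at most 6.48 CPM in d2 PGCLC. *Cdx2*, a caudal-type factor of posterior tissue, was at 141 CPM (128 to 155) against 1 UMI in d2 EpiLC, and *Hoxd9*, *Cdx1*, *Hoxb2*, *Hoxb8* and *Hoxb1* were the other members of the Hox and Cdx list that were called. These 6 were the only ones compared of 37 members. Each had at most 1 UMI in d2 EpiLC and passed the minimum mean through d2 PGCLC alone. The 6 calls of this list became 3 when cells were thinned to the same depth or given equal weight. *T* was higher in d2 PGCLC than in the remaining d2 EB (47.8 CPM), by 2.65-fold (2.32 to 3.03), and so was *Fgf8* (99.8 CPM), while *Cdx2*, *Mesp1* and *Hoxd9* were lower (257, 102 and 122 CPM in the remaining d2 EB).

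The mesodermal transcripts were spread unevenly over the d2 PGCLC. *T* was found in 61 of the 91 cells, and 32 cells had UMIs of both *T* and *Dppa3*, 29 of *T* alone and 18 of *Dppa3* alone. *Hand1* was found in 49 cells, and the 10 cells with most of it held 67.6% of its UMIs, against 45.97% for *T* and 32.2% for *Tfap2c*. *Hoxb2* and *Sox17* had 85.3% and 88.2% in 10 cells, but only 34 UMIs each. *Hand1* had 253 UMIs, *T* 372 and *Tfap2c* 264. A gene with fewer UMIs has a larger share in its top cells by count alone, so *Hoxb2* and *Sox17* cannot be ranked against these. *Hand1* in d2 PGCLC stood at 0.0916 times its level in the remaining d2 EB (942 CPM), a ratio close to that of the imprinted growth factor *Igf2* (0.0803) and the keratin *Krt8* (0.106). The part of free RNA or of mixed droplets in these low levels was not tested. Leaving out the 3 d2 PGCLC called doublets left *Hand1* at a log2 ratio of 6.14, against 6.45 with them.

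Among DNA methylation genes, those of the de novo arm were lower. Of 9 genes compared, 3 were lower and 0 higher, where 8.47% of all genes were lower and 8.40% higher. *Dnmt3b*, the main de novo methyltransferase of the epiblast, was at 798.4 CPM (782 to 815) in d2 EpiLC and 40.6 CPM (33.6 to 48.5) in d2 PGCLC, 19.7-fold (16.4 to 23.8) lower. *Dnmt3a* was at 132 and 16.4 CPM (12.1 to 21.7), and the cofactor *Dnmt3l* at 31.2 and 11.9 CPM (8.31 to 16.6). In contrast, the maintenance methyltransferase *Dnmt1* was nearly level (59.4 and 52.5 CPM), and *Uhrf1*, which recruits it to hemimethylated DNA, was at 101 and 64.4 CPM, within 2-fold. *Uhrf1* was found in 94.5% of d2 EpiLC and 57.1% of d2 PGCLC cells (80.4% and 45.5% after thinning). *Tet1* was at 51.8 and 33.1 CPM, and *Tet2* and *Tet3* were too low to compare. The remaining d2 EB had 47.6 CPM of *Dnmt3b*, 30.9 of *Dnmt3a* and 92.01 of *Uhrf1*, so that *Dnmt3a* and *Dnmt3b* were low in both cell groups of the EB library. Of 19 repressive chromatin genes, *Cbx1*, which encodes HP1β, was lower (385 and 187 CPM) and the other 18 were within 2-fold, a share lower of 5.26%.

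Late germline genes, which act in meiosis and in piRNA-based transposon defense and are silenced by promoter methylation in somatic cells, were low in d2 PGCLC. Only 5 of 20 could be compared, 2 were lower and 0 higher, where 8.47% of all genes were lower and 8.40% higher. *Mael*, a piRNA pathway component, was at 31.2 CPM (28 to 34.7) in d2 EpiLC and 4.09 CPM (2.11 to 7.15) in d2 PGCLC, 7.62-fold (4.31 to 14.9) lower. *Sycp3*, a component of the synaptonemal complex, was at 57.2 CPM (52.8 to 61.8) and 19.4 CPM (14.7 to 25.2), 2.94-fold (2.24 to 3.93) lower. *Ddx4*, *Tex19.1* and *Rpl10l* were within 2-fold and at most 7.501 CPM in d2 PGCLC. Both genes called lower were detected in most d2 EpiLC cells, *Mael* in 57.8% (51.9 to 63.5) and *Sycp3* in 75.1% (69.7 to 79.97), but in 7.69% and 35.2% of d2 PGCLC. Their RefSeq promoters (GRCm38.p6, 250 bases before to 50 after the start) are shown because they share the E-box CACGTG, a palindrome bound by complexes that contain MAX, among others, which is in capitals.
*Mael*, chr1:166238695-166238994, minus strand: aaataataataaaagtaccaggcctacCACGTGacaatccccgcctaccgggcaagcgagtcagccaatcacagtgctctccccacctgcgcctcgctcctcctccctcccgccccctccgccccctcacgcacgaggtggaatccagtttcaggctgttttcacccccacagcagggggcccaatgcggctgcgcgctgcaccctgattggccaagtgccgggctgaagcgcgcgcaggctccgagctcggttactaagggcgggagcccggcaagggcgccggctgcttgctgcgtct
*Sycp3*, chr10:88459337-88459636, plus strand: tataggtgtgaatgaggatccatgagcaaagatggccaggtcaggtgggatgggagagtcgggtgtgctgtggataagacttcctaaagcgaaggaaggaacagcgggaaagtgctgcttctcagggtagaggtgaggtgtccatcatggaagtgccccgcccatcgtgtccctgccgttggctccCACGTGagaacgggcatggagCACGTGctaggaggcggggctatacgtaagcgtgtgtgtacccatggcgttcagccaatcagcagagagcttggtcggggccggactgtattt

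The E-box starts at position -223 from the start site in *Mael* and at -64 and -43 in *Sycp3*. Of the 19 late germline genes with a promoter in the RefSeq table, 11 (57.9%) held CACGTG in at least 1 of their windows, against 8.09% of all 27025 genes and 7.15% of all 32851 windows. Of the compared genes, *Ddx4* also held it and was within 2-fold. These matches describe the letters of the windows only.

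Cholesterol synthesis was the largest of the 37 lists whose compared members were all called in 1 direction. All 17 of 17 genes of cholesterol synthesis and uptake were called lower in d2 PGCLC, where 8.47% of all genes were, with log2 ratios from -2.72 to -1.38. *Fdps*, which makes farnesyl diphosphate, was at 306 CPM (296 to 316) in d2 EpiLC and 52.5 CPM (44.5 to 61.5) in d2 PGCLC, 5.83-fold (4.96 to 6.90) lower. *Sqle*, which makes squalene epoxide, was at 125 and 25.6 CPM, *Msmo1* at 131 and 24.9 CPM, *Cyp51* at 69.4 and 9.89 CPM, and *Lss*, the lanosterol synthase, at 41.6 and 5.45 CPM. Summed over the list, the level was 490.0 CPM in 2i ESC, 1384 CPM in d2 EpiLC, 322 CPM in d2 PGCLC and 580.1 CPM in the remaining d2 EB. In single cells, 76 of 91 d2 PGCLC lay below the lowest d2 EpiLC cell. EpiLC and EB were grown in different media, so the medium and the cell state cannot be told apart here.

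Genes of serine synthesis and of the ATF4 response, which supplies amino acids under stress, were also lower. Of 12 genes, 10 were called lower and 0 higher, with a median log2 ratio of -2.14, where 8.47% of all genes were lower and 8.40% higher. *Phgdh*, the first enzyme of serine synthesis, was at 316 CPM (306 to 327) in d2 EpiLC and 53.2 CPM (45.2 to 62.2) in d2 PGCLC, 5.94-fold (5.06 to 7.02) lower. *Trib3*, a pseudokinase induced by ATF4, was at 62.4 and 5.45 CPM, *Chac1*, which degrades glutathione, at 82.6 and 12.6 CPM, *Mthfd2*, a mitochondrial folate enzyme, at 207 and 35.5 CPM, and *Psph* at 148 and 30 CPM. The remaining d2 EB had similarly low levels of *Trib3* (4.87 CPM), *Mthfd2* (42.4 CPM) and *Psph* (32.2 CPM). The summed level was 1849.6 CPM in d2 EpiLC, 504 CPM in d2 PGCLC and 545 CPM in the remaining d2 EB. Promoters of 3 members and of the cholesterol gene *Hmgcs1* are shown because they hold elements known for these responses, TGATGNAA of the C/EBP-ATF type in *Asns*, *Chac1* and *Trib3* and TCACNCCAC of the sterol type in *Hmgcs1*, each on either strand and in capitals.
*Asns*, chr6:7693160-7693459, minus strand: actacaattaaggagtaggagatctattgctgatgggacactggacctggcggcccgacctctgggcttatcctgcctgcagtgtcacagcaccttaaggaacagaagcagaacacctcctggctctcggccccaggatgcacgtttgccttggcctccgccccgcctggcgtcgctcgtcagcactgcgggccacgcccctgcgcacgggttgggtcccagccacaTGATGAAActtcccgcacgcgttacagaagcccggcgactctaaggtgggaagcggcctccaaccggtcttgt
*Chac1*, chr2:119350992-119351291, plus strand: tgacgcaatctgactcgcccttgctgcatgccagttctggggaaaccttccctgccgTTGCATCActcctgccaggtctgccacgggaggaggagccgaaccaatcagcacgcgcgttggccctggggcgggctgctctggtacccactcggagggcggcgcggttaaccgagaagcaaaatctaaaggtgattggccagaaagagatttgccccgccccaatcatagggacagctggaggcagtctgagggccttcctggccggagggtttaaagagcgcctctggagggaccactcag
*Trib3*, chr2:152344011-152344310, minus strand: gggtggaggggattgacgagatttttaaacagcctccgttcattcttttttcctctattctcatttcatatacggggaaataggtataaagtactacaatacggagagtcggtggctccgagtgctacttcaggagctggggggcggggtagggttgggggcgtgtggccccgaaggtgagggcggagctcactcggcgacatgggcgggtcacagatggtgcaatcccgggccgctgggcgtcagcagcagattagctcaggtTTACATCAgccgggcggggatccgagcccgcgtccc
*Hmgcs1*, chr13:119690101-119690400, plus strand: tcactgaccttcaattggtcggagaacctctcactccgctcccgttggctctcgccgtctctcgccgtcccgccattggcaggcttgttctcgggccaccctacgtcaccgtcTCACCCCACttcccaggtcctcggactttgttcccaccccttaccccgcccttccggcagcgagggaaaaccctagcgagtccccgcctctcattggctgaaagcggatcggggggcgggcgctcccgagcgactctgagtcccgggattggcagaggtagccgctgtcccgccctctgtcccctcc

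TGATGNAA or its reverse complement TTNCATCA was found in 3 of 12 genes of the list with a promoter, against 4.51% of all genes, and all 3 were called lower. TCACNCCAC or GTGGNGTGA was found in 1 of 11 cholesterol genes with a promoter, against 1.44% of all genes. The other members had no such letters in these 300-base windows, which says nothing on elements elsewhere.

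Many but not all glycolytic enzymes were called lower. Of 17 genes, 8 were lower and 1 was higher, with a median log2 ratio of -0.99, and 5 were lower when ribosomal protein and mitochondrially encoded genes were left out of the total. Among all genes, 8.47% were lower and 8.40% higher. *Ldha*, the muscle-type lactate dehydrogenase subunit, was at 2450.4 CPM (2421 to 2479.6) in d2 EpiLC and 539 CPM (512 to 566) in d2 PGCLC, 4.55-fold (4.32 to 4.79) lower, and *Aldoa* was at 1546 and 560.5 CPM. The glucose transporters differed in direction, with *Slc2a1* at 111 and 35.5 CPM and *Slc2a3* at 74.8 and 222 CPM. The remaining d2 EB had 163 CPM of *Slc2a1* and 162 CPM of *Slc2a3*. None of the 25 nuclear genes of the respiratory chain passed the 2-fold rule in either direction. Mitochondrially encoded transcripts took 3.35% of UMIs in d2 EpiLC and 4.70% in d2 PGCLC, and ribosomal protein genes 34.5% and 40.3%, with 35.9% in the remaining d2 EB. Where these genes take a larger share, CPM leaves less for the other genes, by the shift of 0.17 given above.

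**Figure D5:**
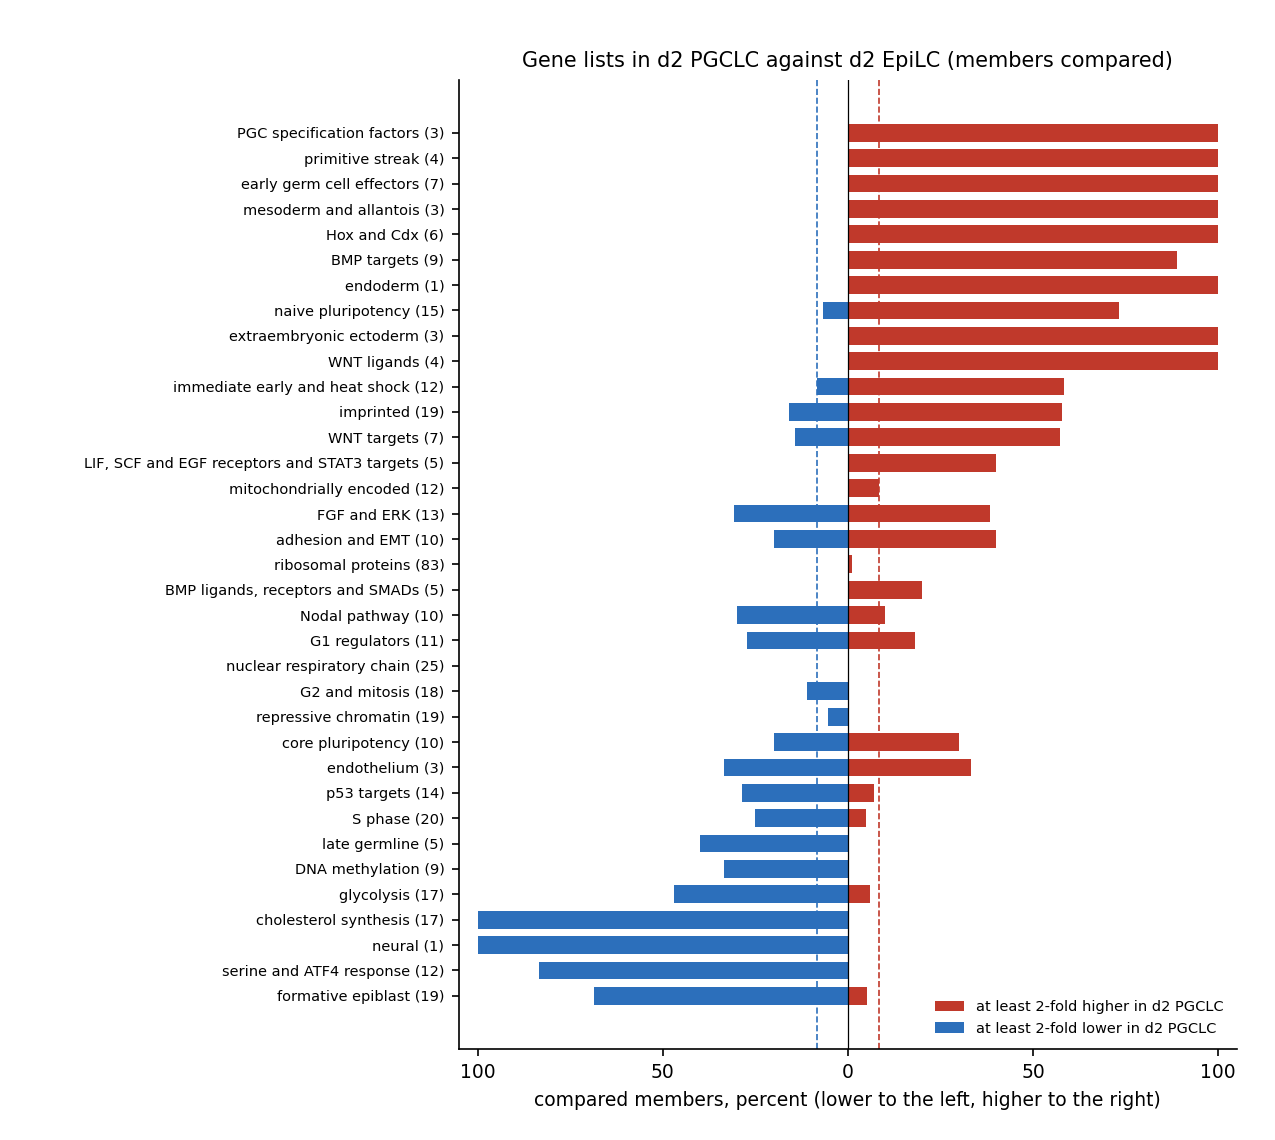
Share of the compared members of each gene list that were at least 2-fold higher (red, to the right) or lower (blue, to the left) in d2 PGCLC, in percent, with the number compared in parentheses and lists ordered by their median log2 ratio. Dashed lines mark the share among all genes, 8.40% higher and 8.47% lower. Germ cell, BMP, streak and naive lists lie at the top, and formative, serine and cholesterol lists at the bottom. Lists with 1 to 4 genes reach 100% easily.

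Most cell cycle genes were within 2-fold. *Ccne1*, a G1/S cyclin gene, was at 193 CPM (185 to 201) in d2 EpiLC and 51.5 CPM (43.6 to 60.4) in d2 PGCLC, and *Rrm2*, *Chaf1b*, *Gins2* and *Mcm2* were the other S phase genes called lower, 5 of 20, while *Ccne2* was higher. Among all genes, 8.47% were lower and 8.40% higher. Of 18 mitotic genes, *Cdk1* (133 and 53.9 CPM) and *Plk1* were lower, a share near the 8.47% of all genes called lower. Among G1 regulators, *Ccnd2*, a D-type cyclin gene, was higher (3.68 and 57.3 CPM) and *Ccnd1*, *Cdk6* and *Myc* were lower, and the cyclin-dependent kinase inhibitor *Cdkn1c* was higher (50.2 and 181 CPM). Of 14 p53 targets, the apoptosis genes *Pmaip1* and *Bbc3* and *Gdf15* and *Ccng1* were lower, and *Btg2* was higher (11.2 and 39.9 CPM). These were shares of 28.6% lower and 7.14% higher, against the same 8.47% and 8.40% of all genes. *Pmaip1*, which encodes NOXA, was at 29.5 and 2.73 CPM.

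Imprinted genes, which are expressed from 1 parental allele, were called higher in 11 of 19 cases and lower in 3, where 8.40% of all genes were higher and 8.47% lower. Their summed level did not follow that count, at 2044 CPM in d2 EpiLC and 1937 CPM in d2 PGCLC, and 48 of the 91 d2 PGCLC were below the d2 EpiLC median. *Peg3* (21.7 and 275 CPM), *Peg10* (6.81 and 136 CPM), *Igf2* (0.269 and 27.6 CPM), *Dlk1* (5.29 and 25.9 CPM) and *Usp29* were the highest by ratio, and *Snrpn*, *Meg3* and *Mest* were lower. The remaining d2 EB had more of *Peg10*, *Igf2* and *Dlk1*, at 300.4, 344 and 213 CPM. Of 12 immediate early and heat shock genes compared, 7 were higher, all of them immediate early genes, part of which respond to cell dissociation, with *Fos* at 5.65 and 145 CPM, *Jun* at 12.5 and 66.1 CPM and *Egr1* at 21.96 and 79.8 CPM, and *Atf3*, an ATF4 target, was the one called lower, against the same 8.40% and 8.47% of all genes. No heat shock gene was called higher, and the summed level of the whole list was 5469 CPM in d2 EpiLC and 4465 CPM in d2 PGCLC, with 72 of the 91 d2 PGCLC below the d2 EpiLC median. The part of dissociation in these values was not tested. The adhesion genes *Cdh1*, the E-cadherin gene (103 and 37.5 CPM), and *Cldn6* were lower, and *Vim*, *Fn1*, *Cdh2* and *Krt8* were higher, although *Krt8* was at 670.0 CPM in the remaining d2 EB against 70.9 CPM in d2 PGCLC.

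Markers of other cell types were low in d2 PGCLC. The embryonic globin genes *Hba-x*, *Hbb-bh1* and *Hbb-y* had 0 UMIs, which allow up to 1.02 CPM. Of the 2-cell stage markers, 5 of 7 were at 0, and *Zscan4f* and *Zscan4d* were each found in 1 d2 PGCLC. Of the extraembryonic ectoderm markers, *Rhox9* (1.70 and 12.96 CPM) and *Ascl2* (4.03 and 10.2 CPM) were among those called higher, and the remaining d2 EB had 24.4 CPM of *Rhox9*. Both genes passed the minimum mean through their d2 PGCLC level. The neural marker *Nes* was lower (10.6 and 2.05 CPM). *Sox17*, an endoderm factor that is also found in germ cells and endothelium, had 11.6 CPM and UMIs in 14 d2 PGCLC, and *Cldn5*, a tight junction gene of endothelium, had 19.8 CPM. Mesoderm and allantois markers summed to 1.08 CPM in d2 EpiLC, 131 CPM in d2 PGCLC and 1257 CPM in the remaining d2 EB, with *Hand1*, *Gata3* and *Gata2* as the members called higher. These 3 were the only ones compared of 15 members, where 8.40% of all genes were called higher. Each had at most 1 UMI in d2 EpiLC and passed the minimum mean through d2 PGCLC alone, so the filter fixed its direction.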

How the data were processed

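The authors aligned and counted the 10x Genomics 3′ v2 libraries with Cell Ranger on mm10 (GRCm38), pooled the 8 E14Tg2a libraries into 1 matrix with reads subsampled to equal mapped depth, and deposited UMI counts per gene and cell (27998 genes). The annotation used is not given in the sources used here. Cells were assigned to libraries by barcode suffix and to PGCLC by the list of barcodes that the authors give. Of the barcode sequences, 8 occurred in more than 1 library and 1 in both d2 EpiLC and d2 EB. The broken header of the table was rejoined, which left 1 barcode (EpiSC) short of 16 bases. Symbols came from GENCODE vM21 (27722 identifiers matched) and promoters from RefSeq.

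The deposited counts were summed per group and scaled to CPM. Ratios used a pseudocount of 1 CPM, which understates ratios of low genes, and genes with a mean of both groups of at least 5 CPM. Intervals are exact Poisson (levels), exact conditional (folds, from counts without the pseudocount) and Clopper-Pearson (shares), at 95%. A fold against 0 UMIs was set against 3 counts over the group. With 1 library per condition no test was run, and precision is limited by the depths given in the report. Genes named are the 15 highest and 15 lowest ratios among genes with a mean of at least 10 CPM, all members of 8 lists (core, naive, formative, PGC, effector, BMP target, DNA methylation, streak), up to 6 members with the largest absolute ratio of each other list, and members at 0 where a list is absent. Other members counted as called are listed by name, and *Asns* and *Hmgcs1* were named for their motifs, both after their values were seen. The members and the 37 lists were chosen with earlier results of these data known. Doublets were called per library with Scrublet in scanpy 1.11.5 (22 d2 EpiLC and 3 d2 PGCLC cells) and kept. The calculations were tested on simulated data and run in Python 3.11.15 (scipy 1.17.1, numpy 2.4.6, pandas 2.3.3), with scikit-learn 1.9.0 and matplotlib 3.10.9. Alternatives changed the pseudocount, the minimum level, the fold rule, depth, doublets, the scaling, the weight of cells and the cells counted as PGCLC. The R1 libraries were not used here, and single values of some list members are not reported here.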

Additional observations from a re-analysis of the deposited data

How the results depend on the processing

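The 736 genes higher and 742 lower became 470 and 521 with a pseudocount of 5 CPM, 1220 and 1260 with a minimum of 1 CPM, 251 and 362 with 20 CPM, 1381 and 1418 without a minimum, 1520 and 1683 at 1.5-fold, 353 and 304 at 3-fold, and 1283 and 749 with a total without ribosomal protein and mitochondrially encoded genes. These follow from how many genes are compared or how far a ratio must go, and in the last case from the scaling. Under the other alternatives (pseudocount 0.5 CPM, thinning, doublets left out, median ratio set to 0, equal weight of cells, the k-means cluster of 98 cells that held 86 of the 91 listed cells, and the 77 listed cells with a UMI of *Prdm1*, *Prdm14* or *Dppa3*) both counts stayed within 1.5 times.

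Lists with more members higher than lower numbered 20 of 37 and between 16 and 22 over the alternatives, and no list leaned the other way under another scaling, thinning or choice of cells. The 1.5-fold rule turned core pluripotency, the 3-fold rule FGF and G1 regulators, and a lower or no minimum the neural list. The Hox and Cdx list had 6 members higher, but 3 after thinning or with equal weight of cells. All 8 PGC markers were found in a larger share of d2 PGCLC than of d2 EpiLC, before and after thinning, which describes how the d2 PGCLC were selected. Of 2313 log2 ratios of single genes under alternatives, 2225 stayed on their side of 2-fold, 86 crossed it and 2 changed sign. Both were *Zscan4f*, found in 1 d2 PGCLC, at -0.49 after thinning and -0.53 among cells with a UMI of *Prdm1*, *Prdm14* or *Dppa3*, against 1.71. No paired analysis was possible because each condition had 1 library.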

Other observations

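A group of interferon-type genes, chosen after the values were seen, was higher in d2 PGCLC than in d2 EpiLC in each of the 7 of 9 members that could be compared. Of all genes, 8.40% were called higher. *Isg15*, *Rtp4*, *Oasl2* and *Ifi27* were near 0 in d2 EpiLC and passed the minimum mean through d2 PGCLC alone. The filter thus fixed their direction. *Ifi27* was at 0.269 CPM in d2 EpiLC, 16.7 CPM in d2 PGCLC and 14.9 CPM in the remaining d2 EB. *Isg15*, a ubiquitin-like modifier, was at 0.896 CPM (0.430 to 1.65) in d2 EpiLC, 45.3 CPM (37.97 to 53.7) in d2 PGCLC and 51.4 CPM in the remaining d2 EB. *Rtp4*, an interferon-induced transmembrane protein gene, was at 0.179, 30 and 17.8 CPM, *Oasl2*, an antiviral gene, at 0.896, 22.8 and 24.9 CPM, and *Psmb8*, an immunoproteasome subunit, at 11.3, 188 and 231 CPM. In d4 PGCLC, *Isg15*, *Rtp4*, *Oasl2* and *Psmb8* had at most 0.948 CPM, and *Ifi27* was at 1.90 CPM. *B2m*, the light chain of class I antigens, was at 24.2, 111 and 127 CPM, and *Irf1*, an interferon regulatory factor, at 8.07, 42.3 and 28.9 CPM. *Isg15* was found in 52.7% (42 to 63.3) of d2 PGCLC, 3.46% of d2 EpiLC and 47.98% of the remaining d2 EB cells. *Ifitm1* and *Ifitm3*, which the germ cell list holds, respond to interferon too and were likewise higher in both groups of EB cells.

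The d4 PGCLC, 44 listed cells of the d4 EB library with 1054626 UMIs in all, had lower levels of the streak and mesoderm genes. *T*, *Rspo3* and *Mesp1* had 0 UMIs in d4 PGCLC, which allow up to 2.84 CPM, against 127, 173 and 32.4 CPM in d2 PGCLC. *Cdx2* was at 7.59 CPM, *Msx1* at 2.84 CPM and *Hand1* at 1.90 CPM. *Tfap2c* was at 87.2 CPM, near its level in d2 PGCLC, and *Dppa3* (193 CPM), *Sox2* (391.6 CPM) and *Nanog* (179 CPM) were higher than in d2 PGCLC. *Prdm1* (21.8 CPM) and *Dnd1* (44.6 CPM) were lower. The d4 cells come from a library of their own, so that stage and library coincide here as well.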
